A study of Arabidopsis thaliana with 34 samples.

Results

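Each of 9 Arabidopsis thaliana genotypes in the series has 1 library lettered A and 1 lettered B, and these 18 of the 34 libraries are described here as set A and set B, 9 libraries each, paired by genotype. The genotypes are 3 inbred accessions, C24, Ler and Col, and 6 F1 hybrids between them, labelled C24xLer, LerxC24, C24xCol, ColxC24, ColxLer and LerxCol. Every library holds mRNA from the whole aerial part of a pool of 5 to 15 seedlings, grown on agar plates and taken 15 days after sowing, with no treatment named. The labels call the letters biological replicates and give no sowing batch, harvest day or hour for them, and they do not say whether the first or last name in a cross stands for its mother. The question put to the pairs is which genes that respond to light, the environment or the circadian clock differ between the sets in the same direction in all 9 genotypes.

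The plant clock is a loop of transcription factors with set times of day. CCA1 and LHY accumulate around dawn and repress genes of the evening by binding a promoter sequence called the evening element, the PRR proteins follow in turn through the day, and TOC1 and the evening complex of ELF3, ELF4 and LUX act from dusk and repress the morning genes. Photoreceptors feed light into the same loop and into HY5, a factor for greening and pigment genes that COP1 and the SPA proteins send for degradation in the dark, while PIF factors promote elongation growth and abscisic acid switches on protective genes when water is short.

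Counts per library ran from 72386257 to 86014198 in set A and from 76445877 to 86704381 in set B. The loci of the plastid genome took 0.0401% to 0.141% of counts in A (median 0.0882%) and 0.0368% to 0.0566% in B (median 0.0419%), and B was the higher library in 1 of 9 genotypes (two-sided exact sign-flip permutation test over the pairs, p = 0.00781, adjusted p over 5 library measures = 0.0391). Mitochondrial loci took a median 0.00396% in A and 0.00177% in B (exact p = 0.0156, adjusted 0.0391). Both shares move with the sets, and so with every gene list below, and their part in those results was not tested. The 8 leaf markers summed to 41920 to 51390 CPM (counts scaled to a common library size) in A and 38060 to 46460 CPM in B, against 8.495 to 26.5 and 8.08 to 21.6 CPM for 6 flower markers and 66.9 to 216.9 and 57.1 to 217 CPM for 11 root markers, so the libraries carry the leaf markers that their label calls for. None of the markers was at 0. Of the root markers, MYB36 (log2 difference B minus A -0.63 ± 0.076 SE, adjusted p = 4.26e-05) and THAS1 (-0.78 ± 0.26, adjusted p = 0.0449, and 0.0785 without the LerxC24 pair) were lower in B, and no flower marker passed the test. In bulk libraries such as these, fewer cells of a type and less RNA per cell cannot be told apart. Library LerxC24 B stood apart in its parental genes. The 10 genes that of the accessions Ler alone expresses reached 74.5% of their Ler level there (median), against 53.9% in LerxC24 A. The 18 that C24 alone expresses reached 31.9% of their C24 level, against 39.2% in LerxC24 A. In the other hybrids with the parent in question, both sets of genes lay at 45.6% to 54%. Without the LerxC24 pair, 14 of the 50 counts of list members higher or lower in B changed, 12 of them by 1 gene. The others, of lower cold and lower jasmonate genes, are given with those lists. Library ColxC24 A stood apart in touch, jasmonate and CBF genes: TCH2 was at 144.9 CPM there and at 31.0 to 60.0 CPM in the other 8 A libraries, SZF1 at 317 and 36.04 to 153.7 CPM, ERF6 at 51.05 and 5.84 to 15.8 CPM, MYC2 at 254.4 and 34.3 to 100.5 CPM, and CBF2 at 49.1 and 2.31 to 6.99 CPM. ColxC24 had the lowest B minus A difference of the 9 genotypes for 10 of 12 touch genes, 9 of 13 jasmonate genes, 6 of 15 cold genes and 54 of 321 members over all lists.

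Of 29777 genes tested, 8886 differed between the sets (29.8%, edgeR quasi-likelihood test with genotype as the pairing term, Benjamini-Hochberg adjusted p below 0.05), 4279 higher in B (14.4%) and 4607 lower (15.5%). Genes that passed the test and had 1 sign in all 9 genotypes numbered 4998 (16.8%), 2461 higher (8.26%) and 2537 lower in B (8.52%), and 5117 genes had 1 sign in all 9 whether or not they passed (17.2%). A difference of at least 2-fold was found for 125 genes higher (0.42%) and 211 lower in B (0.709%), and the ranges of the 9 A and 9 B libraries were apart for 772 genes (2.59%). The median log2 difference over all tested genes was -0.0048. These calls show how alike the 9 genotypes differed, and not whether new sets of libraries would differ in the same way. Without the LerxC24 pair 8106 genes were called, 4124 higher and 3982 lower in B, and 7758 of them were also called with it; 5638 genes then had 1 sign in all 8 genotypes and 5291 of them passed. The members of 25 lists of genes are read against these shares: 14.4% for genes higher in B and 15.5% for genes lower. The lists were chosen with earlier results of these data known. A list's distance from these shares is therefore a description and not a test, and the part of that choice in it was not tested.

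**Figure D1:**
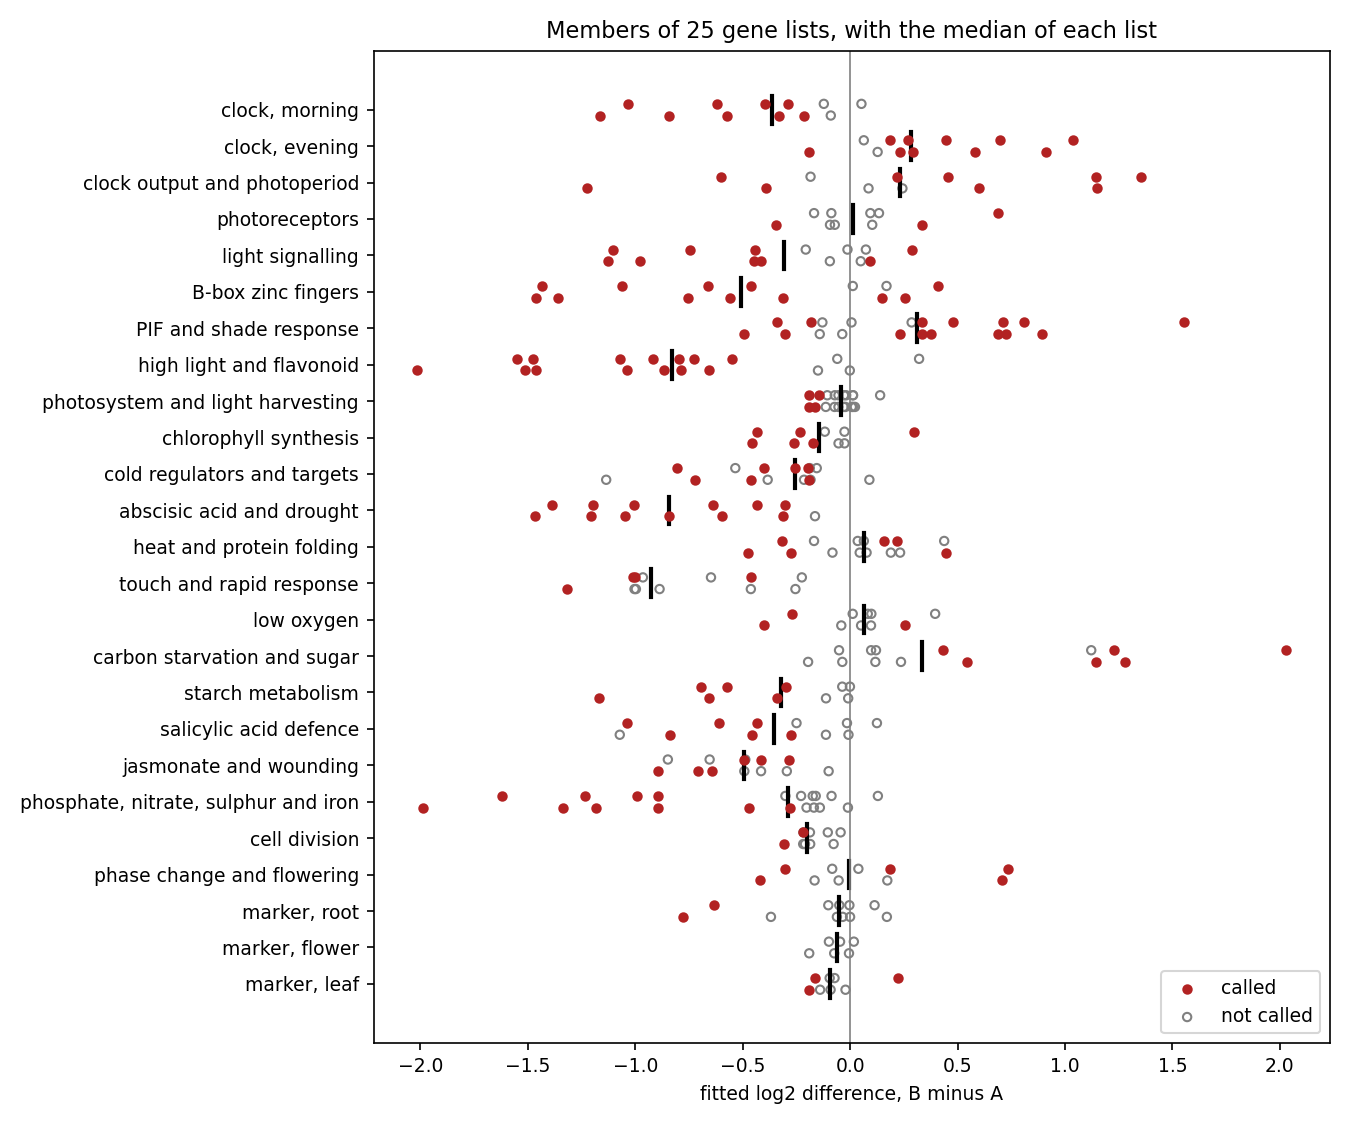
The fitted log2 difference of B minus A (horizontal axis) for each member of the 25 gene lists (rows), with filled points for genes that passed the test, open points for those that did not, and a bar at each list's median. The lists with the lowest medians are touch and rapid response (-0.93), abscisic acid and drought (-0.84) and high light and flavonoid (-0.83), and the highest is carbon starvation and sugar (0.34).

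The clock genes split by their time of day. Of 12 genes of the morning arm, 9 were lower in B, 7 of them in all 9 genotypes, none was higher, and the median log2 difference was -0.36, against 15.5% of all genes lower and 8.52% lower in all 9. Of 12 genes of the evening arm, 9 were higher in B, 7 of them in all 9 genotypes, 1 was lower, and the median was 0.28, against 14.4% of all genes higher and 8.26% higher in all 9. Of 12 clock output and photoperiod genes, 6 were higher and 3 lower, with 5 and 3 in all 9. The counts of members higher and lower that passed the test were the same with any 1 genotype left out, LerxC24 included.

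Promoter sequences of 6 of these genes are shown, chosen because each holds a match to a motif, the evening element or the G-box. Each line gives the 250 bases before the annotated gene start from RefSeq TAIR10.1, in the gene's own direction, with every match to either motif in capitals. The evening element AAAATATCT (its other strand reads AGATATTTT) stands in the first 3, from PRR5 (chr5:8358547-8358796, minus strand), LUX (chr3:17182792-17183041, plus strand) and GRP7 (chr2:9266558-9266807, minus strand). The G-box CACGTG, which reads the same on both strands, stands in the last 3, from CCA1 (chr2:19245341-19245590, plus strand), RVE1 (chr5:5692993-5693242, minus strand) and LHY (chr1:37872-38121, minus strand). The LUX sequence, of an evening gene, holds a G-box as well.
PRR5: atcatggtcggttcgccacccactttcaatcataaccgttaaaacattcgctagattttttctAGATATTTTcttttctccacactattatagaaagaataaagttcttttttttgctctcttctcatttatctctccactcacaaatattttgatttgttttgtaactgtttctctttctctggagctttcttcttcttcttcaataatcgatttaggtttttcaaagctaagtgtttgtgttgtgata
LUX: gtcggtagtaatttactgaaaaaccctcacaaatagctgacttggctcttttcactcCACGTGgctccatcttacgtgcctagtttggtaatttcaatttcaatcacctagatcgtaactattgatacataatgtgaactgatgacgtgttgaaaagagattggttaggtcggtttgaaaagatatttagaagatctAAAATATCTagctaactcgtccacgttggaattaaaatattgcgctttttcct
GRP7: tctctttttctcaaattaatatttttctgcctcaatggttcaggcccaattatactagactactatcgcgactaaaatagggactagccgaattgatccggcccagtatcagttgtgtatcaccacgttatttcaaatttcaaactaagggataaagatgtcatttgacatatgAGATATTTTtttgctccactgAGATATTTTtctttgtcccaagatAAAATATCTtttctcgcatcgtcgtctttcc
CCA1: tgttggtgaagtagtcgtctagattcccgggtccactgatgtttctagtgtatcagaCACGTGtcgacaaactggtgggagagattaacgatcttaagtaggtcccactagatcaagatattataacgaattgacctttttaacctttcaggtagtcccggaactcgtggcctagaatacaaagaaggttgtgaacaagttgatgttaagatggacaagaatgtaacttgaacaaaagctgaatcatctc
RVE1: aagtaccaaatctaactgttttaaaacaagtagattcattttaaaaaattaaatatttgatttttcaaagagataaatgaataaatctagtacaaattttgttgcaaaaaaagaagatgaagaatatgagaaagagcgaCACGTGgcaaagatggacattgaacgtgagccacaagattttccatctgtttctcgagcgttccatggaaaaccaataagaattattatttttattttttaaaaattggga
LHY: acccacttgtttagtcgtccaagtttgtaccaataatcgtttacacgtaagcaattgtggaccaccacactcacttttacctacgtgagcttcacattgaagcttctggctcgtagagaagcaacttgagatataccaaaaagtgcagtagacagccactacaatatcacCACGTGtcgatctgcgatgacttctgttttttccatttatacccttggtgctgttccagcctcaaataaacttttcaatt

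In windows from 250 bases before to 50 after the gene start, searched on both strands, the evening element was found in 852 of 32564 genes (2.62%). It was in 5 of 12 evening genes (TOC1, PRR5, LUX, BOA and FKF1), in 5 of 12 output genes, GRP7 among them, and in 2 of 12 morning genes (RVE7 and PRR9). The G-box was in 2256 genes (6.93%), in 9 of 12 morning genes (CCA1, LHY, RVE8, RVE1, RVE2, PRR9, PRR7, LNK1 and LNK2), in 2 evening genes (LUX and BOA) and in 2 output genes (GRP7 and CDF2). The G-box of GRP7 lies in the part of its window after the gene start, which is not printed above. Matches of the motifs cannot overlap each other, and a match is a description of the sequence only. GRP7 holds 3 evening elements.

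Among morning genes, LNK1, a co-activator that works with RVE8, had the smallest p. Its level was 91.5 to 142 CPM in set A (median 108) and 40.8 to 60.6 CPM in set B (median 48.7), a 2.24-fold lower level in B (log2 difference -1.17 ± 0.044, adjusted p = 6.27e-09). The A and B ranges did not overlap, and the difference lay between -1.4 and -0.98 in every genotype. The LNK1 locus overlaps an annotated neighbour, so some of its counts may belong to that gene.

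RVE1, a dawn-phased MYB factor of the CCA1 family that links the clock to auxin, was at 9.26 to 26.5 CPM in A (median 13.04) and 4.99 to 10.5 CPM in B (median 6.20; log2 difference -1.03 ± 0.097, adjusted p = 1.11e-05). RVE8, which activates evening genes, was at 20.2 to 38.5 CPM in A (median 27.5) and 15.1 to 25.03 CPM in B (median 17.9; -0.58 ± 0.049, adjusted p = 2.36e-06). Both were lower in B in 9 of 9 genotypes, with overlapping ranges between the sets.

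The 2 core dawn factors had smaller differences. CCA1 was at 221 to 280 CPM in A (median 256) and 180 to 249 CPM in B (median 200), a log2 difference of -0.33 ± 0.044 (adjusted p = 0.000104). LHY was at 23.63 to 59.1 CPM in A (median 33.0) and 19.6 to 40.3 CPM in B (median 24.6), a log2 difference of -0.39 ± 0.051 (adjusted p = 7.93e-05). Both were lower in B in 9 of 9 genotypes, but the level of LHY varied more among genotypes than between sets, and with the pairing by genotype left out its adjusted p was 0.0955. The daytime repressors differed from each other: PRR9, the first of the series, had a median of 20.4 CPM in A and 12.1 CPM in B and was lower in 9 of 9 genotypes (-0.84 ± 0.13, adjusted p = 0.000754), while PRR7 had 278 and 270 CPM (0.05 ± 0.042, adjusted p = 0.387).

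PRR5, which follows PRR7 and PRR9 in the afternoon, was at 11.8 to 56.6 CPM in A (median 25.7) and 23.2 to 99.7 CPM in B (median 51.9), 2.05-fold higher in B (log2 difference 1.04 ± 0.12, adjusted p = 0.000129). LUX, the DNA-binding member of the evening complex, was at 9.21 to 19.7 CPM in A (median 14.0) and 19.1 to 33.3 CPM in B (median 26.3; 0.91 ± 0.10, adjusted p = 8.44e-05). Both were higher in B in 9 of 9 genotypes, by 0.50 to 1.66 for PRR5 and 0.60 to 1.51 for LUX on the log2 scale, although the sets overlap because genotypes differ in level. Leaving out any 1 genotype kept both calls.

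The other evening genes had smaller differences. FKF1, a blue light receptor of the afternoon, had a log2 difference of 0.70 ± 0.055 (adjusted p = 1.36e-06), PRR3, which protects TOC1 from degradation, 0.58 ± 0.070 (4.45e-05), ELF3, the scaffold of the evening complex, 0.45 ± 0.035 (1.26e-06), and GI, a large protein that stabilises ZTL and promotes flowering, 0.29 ± 0.041 (0.000136). TOC1, the evening repressor of CCA1 and LHY (0.27 ± 0.052, 0.00164), and ELF4 (0.23 ± 0.062, 0.0119) had the smallest of these. ELF4 was higher in 8 of 9 genotypes and the rest of these in 9 of 9. ZTL, the F-box protein that marks TOC1 for degradation, was the member lower in B (-0.19 ± 0.043, adjusted p = 0.00442, lower in 8 of 9). With the pairing left out, TOC1 (adjusted p = 0.170), ELF4 (0.0975) and PRR3 (0.0728) no longer passed. FKF1, LUX and ELF3 each overlap another annotated gene.

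**Figure D2:**
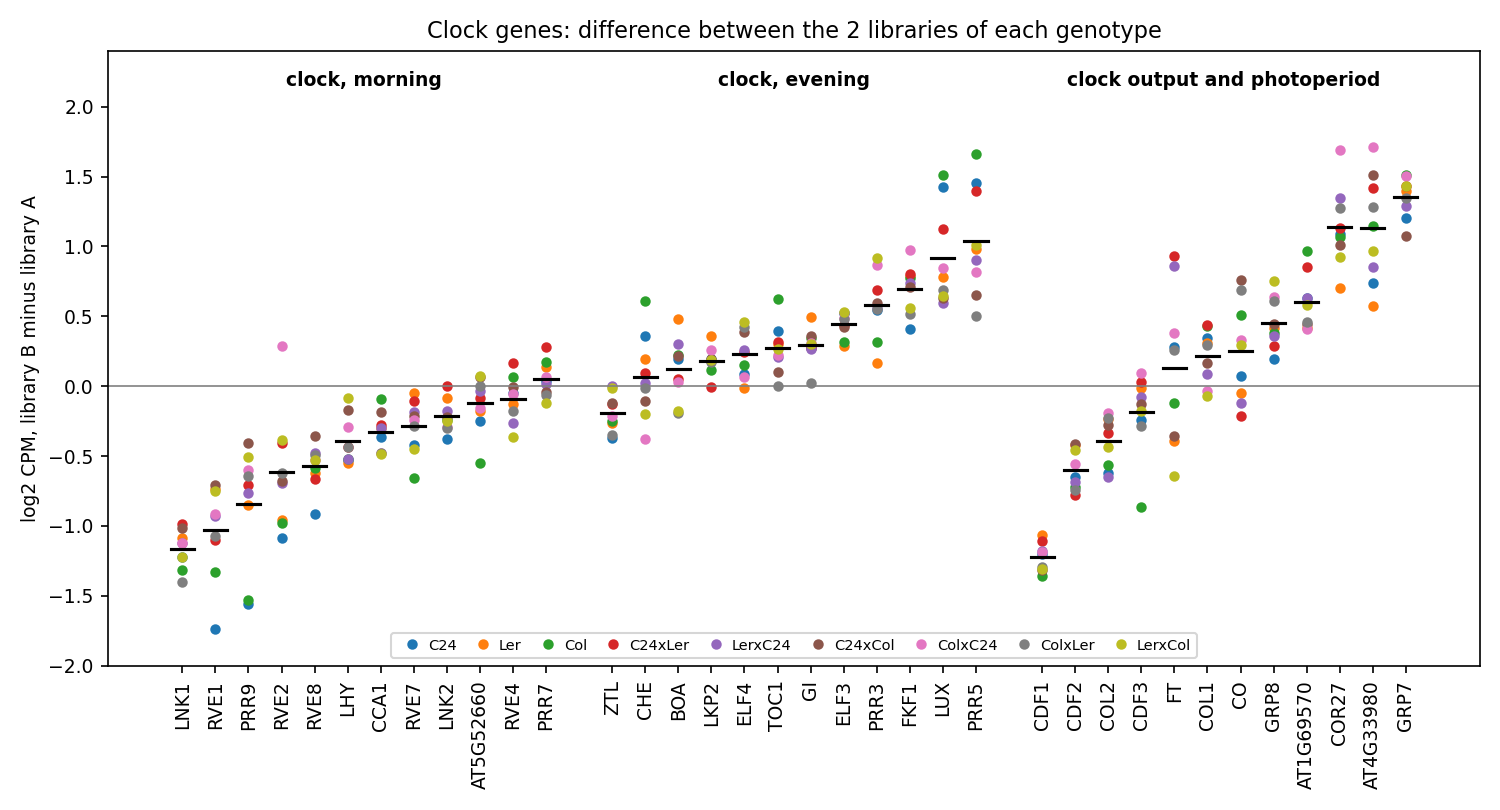
Difference in log2 CPM between library B and library A of the same genotype (vertical axis) for 36 clock genes, 1 coloured point per genotype and a black bar at the mean of the 9. Points of LNK1, RVE1, PRR9, RVE8 and CDF1 lie below 0 in every genotype, and those of ELF3, PRR3, FKF1, LUX, PRR5 and GRP7 above it.

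Among the outputs of the clock, GRP7, an RNA-binding protein of the evening that also damps its own transcript, was at 182 to 484 CPM in A (median 316) and 478 to 1140 CPM in B (median 799). It was 2.56-fold higher in B (log2 difference 1.35 ± 0.047, adjusted p = 2.92e-09), with every genotype between 1.07 and 1.51. The highest A library, C24xCol with 484.4 CPM, was just above the lowest B library, Ler with 478.2 CPM, so the ranges touch although each pair differs. CDF1, a DOF factor that holds back CO and flowering in the morning, was at 27.3 to 43.5 CPM in A (median 30.0) and 11.4 to 18.6 CPM in B (median 13.1), 2.34-fold lower in B (-1.22 ± 0.038, adjusted p = 1.94e-09). The sets were apart, and the difference lay between -1.35 and -1.06 in all genotypes. CDF2, its close relative, was also lower with the sets apart (-0.60 ± 0.051, adjusted p = 2.37e-06), as was COL2, a CO-like B-box gene (-0.39 ± 0.054, adjusted p = 0.000123), with overlapping sets.

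COR27, a night-phased repressor that is also induced by cold, was at 1.23 to 2.79 CPM in A (median 1.88) and 2.61 to 6.91 CPM in B (median 4.57), higher in 9 of 9 genotypes (log2 difference 1.14 ± 0.087, adjusted p = 1.05e-06). AT4G33980, entered in the list as COR28, had a difference of nearly the same size (1.15 ± 0.11, adjusted p = 9.08e-06). AT1G69570, entered in the list as CDF5, went the opposite way to CDF1 and CDF2. It was higher in B with the sets apart, 13.5 to 21.2 CPM against 21.7 to 32.8 CPM (0.60 ± 0.058, adjusted p = 7.5e-06). It overlaps an annotated antisense gene whose counts cannot be told apart from its own here.

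**Figure D3:**
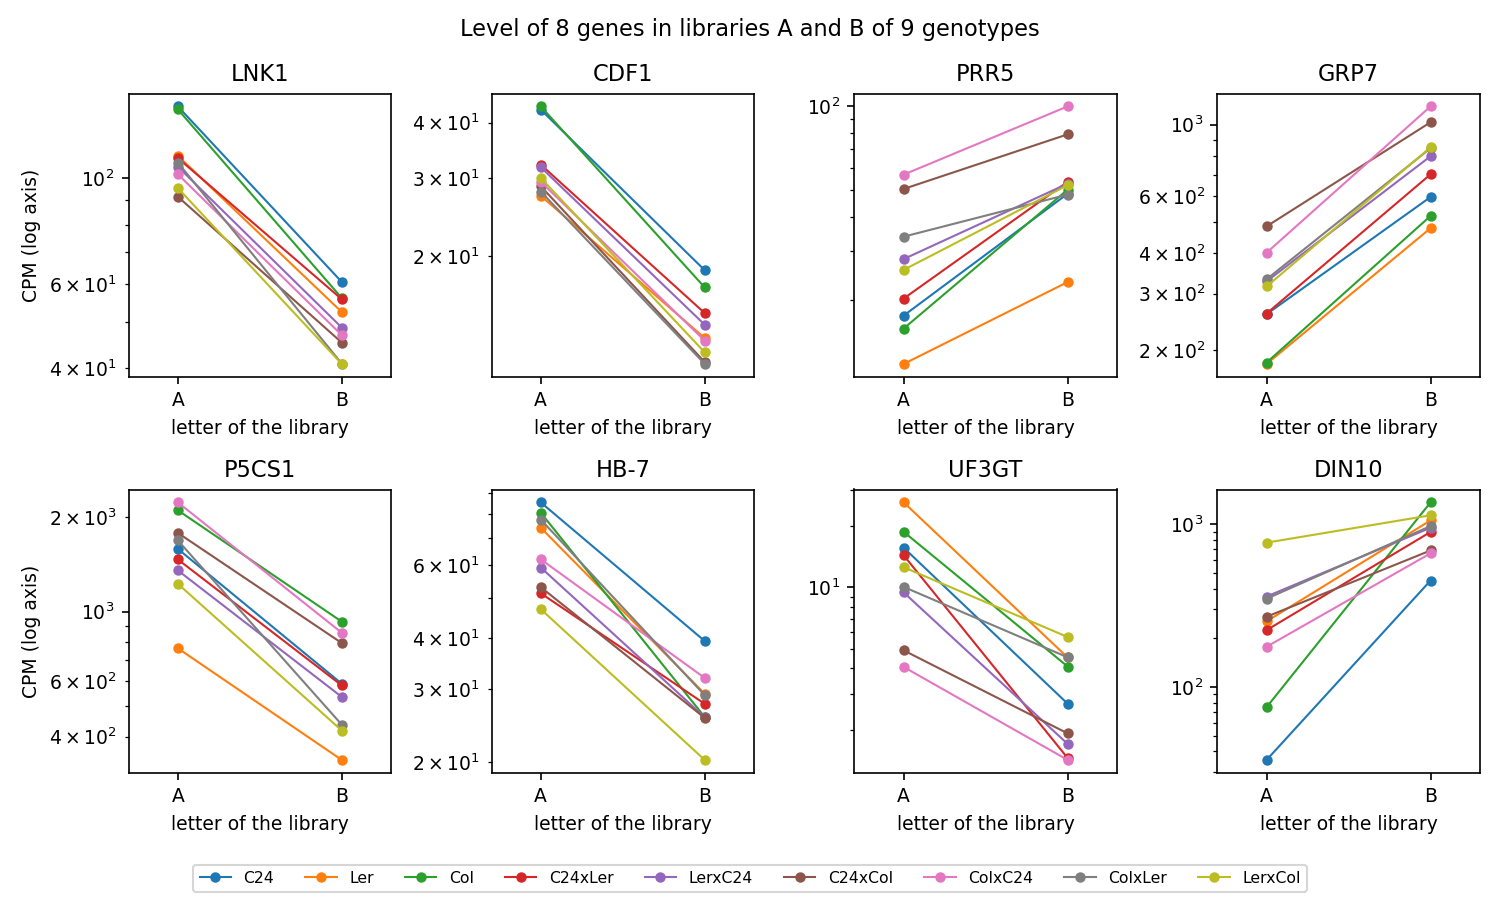
Level in CPM (log axis) of 8 genes in libraries A and B, with a line joining the pair of each of the 9 genotypes. LNK1, CDF1, P5CS1, HB-7 and UF3GT slope down from A to B in 9 of 9 genotypes and PRR5, GRP7 and DIN10 slope up in 9 of 9, with LNK1, CDF1 and HB-7 showing no overlap between the sets.

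Of 10 photoreceptor genes, 2 were higher in B and 1 was lower, near the shares over all genes. The lower count was 2 without C24 or ColxLer and 3 without LerxCol. PHYA, the far-red light receptor whose transcript is repressed by light, was at 99.1 to 219 CPM in A (median 160) and 170 to 320 CPM in B (median 240; log2 difference 0.69 ± 0.090, adjusted p = 0.000191), higher in 9 of 9 genotypes. PHOT1, a blue light receptor for phototropism, was higher in 8 of 9 (0.34 ± 0.078, adjusted p = 0.00677). PHOT2, which drives chloroplast avoidance in strong light, was lower with the sets apart, 296 to 350 CPM in A and 234 to 280 CPM in B (-0.34 ± 0.034, adjusted p = 7.58e-06).

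Of 14 light signalling genes downstream of the receptors, 7 were lower in B, 6 of them in all 9 genotypes, and 2 were higher. SPA1, a partner of COP1 in degrading HY5, was at 91.4 to 131 CPM in A (median 108) and 54.7 to 76.5 CPM in B (median 64.3; log2 difference -0.74 ± 0.036, adjusted p = 4.43e-08). SPA4 (-0.98 ± 0.068, 6.02e-07) and COP1, the ubiquitin ligase itself (-0.45 ± 0.032, 6.53e-07), were lower as well, and for all 3 the sets were apart. The substrates of that complex were lower too: HYH, the closest relative of HY5, was at 5.60 to 12.1 CPM in A (median 8.85) and 2.35 to 6.14 CPM in B (median 3.92; -1.13 ± 0.072, adjusted p = 3.25e-07), and HY5 had a log2 difference of -0.44 ± 0.072 (adjusted p = 0.000472). The genes higher in B were RUP1, a repressor of the UV-B receptor (0.29 ± 0.097, adjusted p = 0.0372), and FHY3, an activator in far-red light (0.09 ± 0.031, adjusted p = 0.0435), and each lost its call in 6 of the 9 fits that left out 1 genotype, with adjusted p up to 0.0950 and 0.105.

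Of 14 B-box genes, zinc finger factors that act with or against HY5, 9 were lower in B and 3 higher (2 without LerxC24). BBX16 (-0.76 ± 0.054, adjusted p = 6.6e-07), BBX31 (-1.06 ± 0.10, 5.55e-06), BBX24 (-0.31 ± 0.034, 2.07e-05) and BBX19 (-0.56 ± 0.064, 2.99e-05) were lower in 9 of 9 genotypes, with the sets apart for BBX24 and BBX19. BBX21, an activator of HY5, went the other way in 9 of 9 genotypes (0.41 ± 0.032, adjusted p = 1.48e-06). The other higher genes, BBX14 and BBX28, lost their calls in 6 and 5 of the fits without 1 genotype.

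In the PIF and shade list, 11 of 20 genes were higher in B, 8 of them in all 9 genotypes, and 4 were lower (3 without LerxC24 or without ColxC24). XTH15, a cell wall enzyme and a marker of shade, was at 2.401 to 3.48 CPM in A (median 2.78) and 5.06 to 16.2 CPM in B (median 8.22), with the sets apart (log2 difference 1.55 ± 0.16, adjusted p = 5.12e-05). PIL1, a shade-induced target of PIFs (0.89 ± 0.10, 3.47e-05), IAA29, an auxin response repressor (0.81 ± 0.081, 9.68e-06), and YUC2, an enzyme of auxin synthesis (0.48 ± 0.059, 5.17e-05), were higher in 9 of 9. The genes of the PIF factors themselves went the other way where they passed. PIF3 (-0.49 ± 0.044, adjusted p = 3.51e-06), PIF5 (-0.34 ± 0.065, 0.00163) and PIF1 (-0.18 ± 0.045, 0.00756) were lower, and PIF4 had a log2 difference of -0.14 that did not pass. In the 3 inbreds alone PIF5 (-0.097, adjusted p = 0.358) and PIF1 (-0.054, 0.729) did not pass. In the 6 hybrids alone PIF4 did (-0.272, adjusted p = 0.0188). Its direction was not shared, however. PIF4 was higher in B in C24 (176.8 CPM in A and 185.4 in B), Ler (115.6 and 118.7), Col (179.2 and 210) and C24xLer (176.7 and 190.4). It was lower in B in each of the remaining hybrids. YUC5, lower in B over all 9 pairs, lost its call in 7 fits without 1 genotype.

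Of 18 high light and flavonoid genes, 14 were lower in B, 11 of them in all 9 genotypes, none was higher, and the median log2 difference was -0.83. UF3GT, which adds a sugar to anthocyanin, was at 4.06 to 26.1 CPM in A (median 12.5) and 1.42 to 5.70 CPM in B (median 2.68), 4.04-fold lower (log2 difference -2.02 ± 0.24, adjusted p = 0.000253). AT5MAT, an anthocyanin acyltransferase outside the list, was 4.17-fold lower with the sets apart, 3.40 to 14.2 CPM in A and 1.099 to 3.26 CPM in B (-2.06 ± 0.25, adjusted p = 0.000209). PAP1, the MYB activator of anthocyanin genes, was at 3.93 to 12.1 CPM in A (median 6.29) and 1.52 to 4.05 CPM in B (median 2.43; -1.51 ± 0.083, adjusted p = 8.55e-08).

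GSTF12, needed to carry anthocyanin to the vacuole (-1.46 ± 0.11, adjusted p = 5.54e-06), and CHI, an early flavonoid enzyme (-0.92 ± 0.092, 2.03e-05), were lower in 9 of 9. CHS, the first enzyme of the pathway, had medians of 156 CPM in A and 74.3 CPM in B, with ranges of 76.2 to 332 and 50.05 to 196 CPM (-0.80 ± 0.18, adjusted p = 0.0104, lower in 8 of 9). Its call was lost with the pairing left out (adjusted p = 0.109) and in the 6 hybrids alone (-0.661, adjusted p = 0.119). In LerxCol, CHS was higher in B (155.9 CPM in A and 172.4 in B). The G-box was in the promoter windows of 9 of these 18 genes, against 6.93% of all genes.

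Of 20 photosystem and light harvesting genes, 4 were lower in B (20%, near the 15.5% of all genes) and none was higher. The median was -0.04, and no member of 1 sign in all genotypes passed. The lower genes were LHCB6 (-0.19 ± 0.044, adjusted p = 0.00542), LHCB2.2 (-0.14 ± 0.043, 0.0225), RCA, which activates Rubisco (-0.19 ± 0.048, 0.00873), and RBCS1A, a Rubisco small subunit (-0.16 ± 0.045, 0.0142). LHCB2.2 lost its call in 4 of 9 fits without 1 genotype (adjusted p up to 0.0642), and with the pairing left out LHCB2.2 (0.292) and RBCS1A (0.0845) did not pass. RBCS1A did not pass in the 6 hybrids alone (0.0508), and in the 3 inbreds alone none of the 4 did, with differences of -0.07 for LHCB6, -0.04 for RCA, -0.05 for LHCB2.2 and -0.15 for RBCS1A. In chlorophyll synthesis 5 of 10 genes were lower and 1 higher: GUN4 was lower with the sets apart, 141 to 204 CPM in A and 107 to 135 CPM in B (-0.43 ± 0.040, adjusted p = 4.95e-06), CAO, which makes chlorophyll b, by -0.46 ± 0.044 (6.68e-06), and PORB was higher in 9 of 9 (0.30 ± 0.060, 0.00216).

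Abscisic acid and drought genes were lower in B almost throughout, 12 of 13 genes (10 without ColxC24), 9 of them in all 9 genotypes, with a median log2 difference of -0.84 and none higher. P5CS1, the enzyme that sets the rate of proline synthesis, was at 765 to 2229 CPM in A (median 1585) and 337 to 929 CPM in B (median 582; -1.39 ± 0.072, adjusted p = 1.04e-07). HB-7, a homeodomain factor induced by abscisic acid, was at 47.0 to 85.3 CPM in A (median 62.1) and 20.2 to 39.3 CPM in B (median 27.7; -1.20 ± 0.069, adjusted p = 3.24e-07), with the sets apart. GolS2, which starts the synthesis of raffinose sugars (-1.47 ± 0.091, 6.95e-07), and ABI2, a phosphatase that restrains the signal (-0.60 ± 0.046, 1.09e-06), were lower in 9 of 9, and the sets were apart for ABI2.

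The gene with the largest difference among those higher in B was ERD5, a mitochondrial enzyme that breaks proline down, at 1.79 to 14.0 CPM in A (median 7.46) and 26.0 to 54.0 CPM in B (median 44.5). It was 6.15-fold higher (log2 difference 2.62 ± 0.26, adjusted p = 8.73e-05), with the sets apart and every genotype between 1.48 and 3.91. The gene for proline synthesis was lower and the gene for its breakdown higher in B in 9 of 9 genotypes.

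Of 15 cold genes, 7 were lower in B and none was higher, 3 of them in all 9 genotypes. COR15A, a chloroplast protein made in the cold (-0.40 ± 0.052, adjusted p = 6.91e-05), RD29A, induced by cold and drought (-0.81 ± 0.10, 0.000229), and GolS3, a galactinol synthase induced by cold (-0.19 ± 0.039, 0.00226) were lower in 9 of 9. The CBF regulators upstream were highest in 1 library, ColxC24 A. CBF1 was at 14.46 CPM there and at 0.379 to 3.46 CPM in the other A libraries, against 0.339 to 4.97 CPM in B (-0.72 ± 0.23, adjusted p = 0.0382), and it lost its call in 6 of 9 fits without 1 genotype, with -0.56 (adjusted p = 0.0917) without ColxC24. CBF2 had a log2 difference of -0.38 (adjusted p = 0.198; -0.19 and 0.241 without ColxC24) and CBF3 of -0.53 (0.0541; -0.47 and 0.116 without ColxC24), and CBF3 passed in DESeq2 (0.00536). Without the LerxC24 pair, 4 cold genes were lower, and 6 without ColxC24. Of 15 heat and protein folding genes, 3 were higher and 3 lower, 20% each, near the 14.4% and 15.5% over all genes. HSP101, a heat-induced chaperone, had a log2 difference of 0.08 (not called). The higher count was 1 without ColxLer, and both counts were 2 without LerxC24 or without ColxC24.

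**Figure D4:**
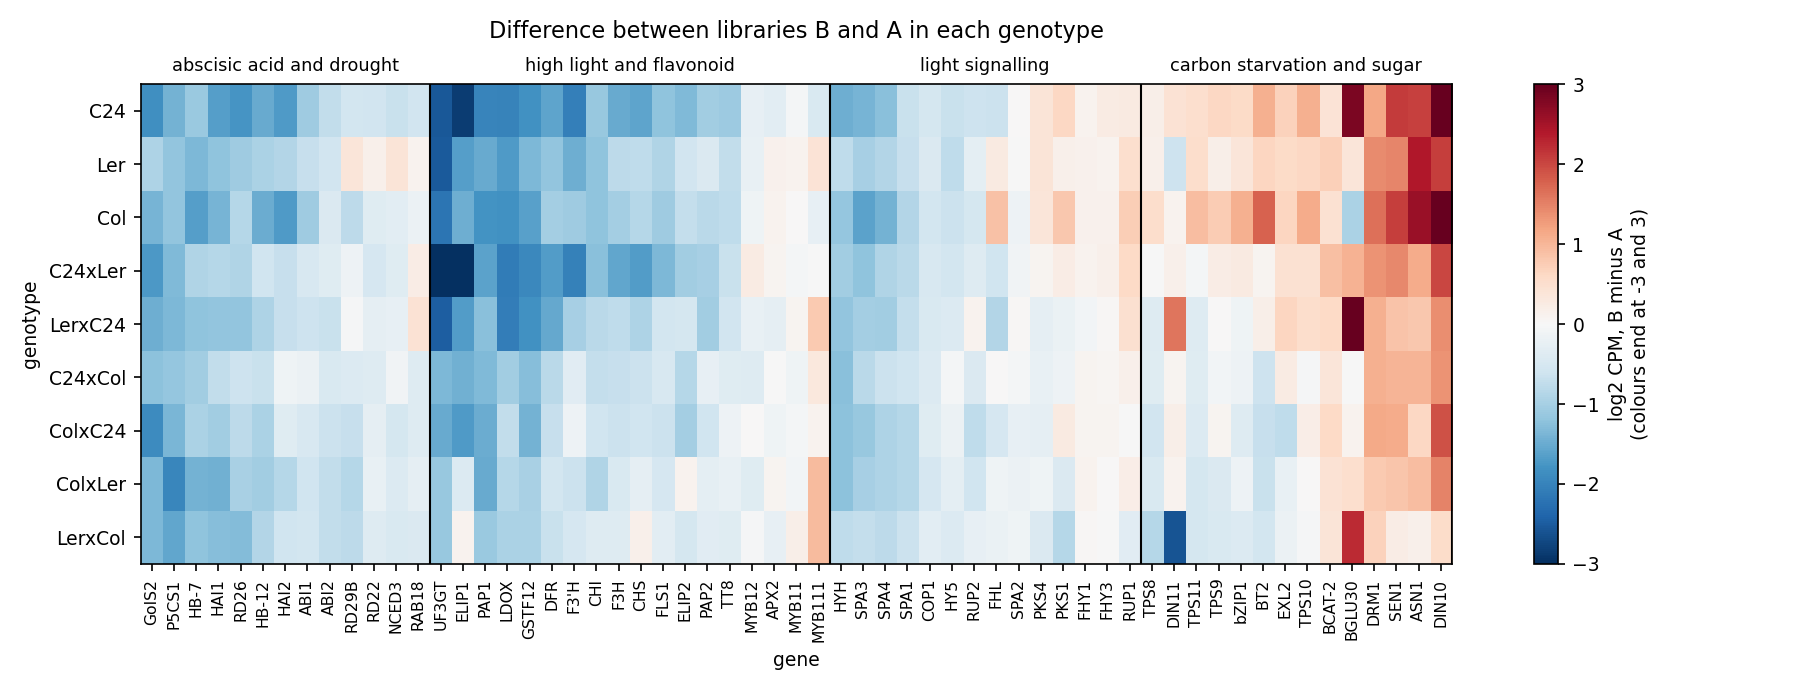
Difference in log2 CPM of B minus A in each of the 9 genotypes (rows) for the members of 4 lists (columns), blue where B was lower and red where it was higher, with colours ending at -3 and 3. Columns from GolS2 to HAI1, from PAP1 to DFR and from HYH to COP1 are blue in every row, and DRM1, SEN1, ASN1 and DIN10 are red in every row.

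Genes of carbon starvation went the opposite way: 6 of 14 were higher in B, 5 of them in all 9 genotypes, and none was lower. DIN10, a raffinose synthase relative induced in the dark, was at 35.5 to 770 CPM in A (median 253) and 451 to 1363 CPM in B (median 952; log2 difference 2.03 ± 0.39, adjusted p = 0.0043). SEN1, a dark and senescence marker, was at 23.7 to 106 CPM in A and 65.5 to 229 CPM in B (1.23 ± 0.20, 0.00148), DRM1, a dormancy marker, at 19.9 to 99.7 and 53.0 to 217 CPM (1.14 ± 0.089, 4.74e-06), and BCAT-2, an enzyme of branched-chain amino acid breakdown, had a difference of 0.54 ± 0.059 (1.66e-05). All 4 were higher in 9 of 9 genotypes, with overlapping sets. ASN1, the dark-induced asparagine synthetase, was also higher in 9 of 9 (1.28 ± 0.28, adjusted p = 0.00815), a call lost with the pairing left out (0.231).

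Starch genes were lower in 6 of 10 cases, all 6 in 9 of 9 genotypes, and none was higher. BAM3, the chloroplast amylase of nightly starch breakdown, was at 91.6 to 127 CPM in A and 56.1 to 82.1 CPM in B, with the sets apart (-0.70 ± 0.053, adjusted p = 1.09e-06). DPE2, which handles the maltose released (-0.34 ± 0.036, 1.54e-05), APL3, a subunit of the first enzyme of starch synthesis (-0.57 ± 0.083, 0.000357), and PHS2, the cytosolic phosphorylase (-0.30 ± 0.048, 0.000366) were lower as well.

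Nutrient genes were lower in 10 of 20 cases, 9 of them in all 9 genotypes, with none higher. The 4 with the smallest p were sulphur genes. APR1, the key enzyme of sulphate reduction, was at 59.4 to 160 CPM in A (median 87.8) and 14.0 to 56.7 CPM in B (median 30.8), 3.07-fold lower with the sets apart (-1.62 ± 0.099, adjusted p = 1.35e-06). APR3 (-0.99 ± 0.10, 4.21e-05), LSU1 (-1.34 ± 0.16, 0.000145) and ATSDI1 (-1.18 ± 0.12, 3.59e-05), all induced when sulphur is short, were lower in 9 of 9. bHLH100, a factor induced by iron shortage, was 3.97-fold lower (-1.99 ± 0.41, adjusted p = 0.00609).

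Defence and wounding genes were lower where they differed. Of 12 salicylic acid genes, 6 were lower and none higher, among them WRKY70, a factor between salicylic acid and jasmonate (-1.04 ± 0.25, adjusted p = 0.0145), SARD1, an activator of salicylic acid synthesis (-0.61 ± 0.095, 0.000348), and PAD4, a partner of EDS1 in immunity (-0.43 ± 0.067, 0.000325). In the 3 inbreds alone WRKY70 (adjusted p = 0.132), SARD1 (0.0799) and PAD4 (0.0598) did not pass. WRKY70 was also lost in the 6 hybrids alone (0.107), and PAD4 with the pairing left out (0.111). PR1, the usual readout of the salicylic acid pathway, had a log2 difference of -1.07 that was not called and moved to -0.42 without the Ler pair and to -1.73 without the Col pair. Of 13 jasmonate genes, 6 were lower, with MYC2, the master factor, at -0.89 ± 0.23 (adjusted p = 0.017; -0.70 and 0.00177 without ColxC24, and lost in the 6 hybrids alone, 0.151), but this count fell to 2 with C24xLer, LerxC24 or ColxLer left out and to 3 without LerxCol, and was 5 without ColxC24. Of 12 touch and rapid response genes, 4 were lower, among them WRKY53, a senescence and stress factor (-0.46 ± 0.080, 0.000881) and TCH2, a calmodulin-like gene (-1.01 ± 0.21, 0.0068), with a median of -0.93 over the list. Of the others, SZF1, a zinc finger gene, had -1.32 (adjusted p = 0.0169) and ERF6, an ethylene response factor, -1 (0.0238), a call lost in 2 of 9 fits without 1 genotype (up to 0.0555). Without ColxC24, whose A library was the highest in A for TCH2, SZF1 and ERF6, these 3 differences were -0.83 (adjusted p = 0.000775), -1.12 (0.0247) and -0.77 (0.00351), and 5 touch genes were lower. In the 6 hybrids alone the 3 no longer passed (0.0554, 0.184 and 0.167).

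Of 10 cell division genes, 2 were lower in B and none was higher, and of 10 low oxygen genes 1 was higher and 2 were lower. The lower genes are 20% of each list, near the 15.5% of all genes, and the higher low oxygen gene is 10%, against 14.4%. With single pairs left out these counts ran from 1 to 3 for lower cell division genes and from 1 to 2 for both low oxygen counts. Of 10 phase change and flowering genes, 3 were higher and 2 lower: SPL5 (0.71 ± 0.069, adjusted p = 7.32e-06) and SPL4 (0.73 ± 0.074, 1.05e-05), targets of miR156 that rise as plants mature, were higher in 9 of 9, and SPL9, a target of the same miRNA, was lower in 9 of 9 (-0.42 ± 0.086, 0.00295). SVP, a repressor of flowering, was lower in 9 of 9 (-0.30 ± 0.048, 0.000355).

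The 12 genes with the largest differences higher in B and of 1 sign in all genotypes included cell wall and sugar genes. MIOX2, which turns inositol into a wall precursor, was at 4.41 to 18.5 CPM in A (median 8.02) and 20.8 to 76.0 CPM in B (median 34.2), 4.64-fold higher (log2 difference 2.22 ± 0.19, adjusted p = 3.52e-05). PATL2, a membrane trafficking protein (3.86-fold), and the wall enzymes XTH33 (3.79-fold) and XTH24 (3.53-fold) followed, and the sets were apart for MIOX2, PATL2 and XTH24. The rest were ERD5, DIN10 and 6 loci known by number: AT1G72416, AT2G30600, AT5G52882, AT4G21870, AT5G40450 and AT2G30615, at 3.09-fold to 3.68-fold. AT2G30600 and AT2G30615 overlap, so their counts are not independent.

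The 12 genes lowest in B by the same rule were AT5MAT, UF3GT, bHLH100 and APR1, given above, and 8 loci known by number. AT1G60590, annotated as a pectin lyase-like protein, was at 15.5 to 49.4 CPM in A (median 23.98) and 5.71 to 9.46 CPM in B (median 7.82), and AT4G08570, annotated as a heavy metal transport protein, was at 4.02 to 33.7 and 1.80 to 4.01 CPM, each 3.59-fold lower. The sets were apart for both, for AT4G08570 only barely. AT2G15020 was 3.33-fold lower, also with the sets apart. AT2G30760 and AT2G30766 overlap each other and had nearly equal differences, -1.75 in both.

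The direction of the differences was shared across genotypes. Of the genes called higher in B, 88.4% (LerxCol) to 96.4% (ColxLer) were also higher in the single pair of a genotype, and of those called lower 90% (LerxCol) to 95.9% (ColxC24) were lower, where each pair contributed to the calls. Across all 29777 genes the differences of 2 genotypes correlated with r from 0.200 (Col and LerxCol) to 0.504 (C24 and Col), median 0.353 over 36 pairs of genotypes, and from 0.312 to 0.793 over the 16826 genes with a mean of at least 5 CPM. These correlations run across genes, which are not independent replicates.

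The size of the difference was compared between the 3 inbreds and the 6 hybrids with an interaction term, and 247 of 29777 genes passed (0.829%), with 4769 at an unadjusted p below 0.05 (16%). This count was 7 without the Col pair, 22 without C24, 843 without Ler, 811 without C24xLer and 81 without LerxC24, so it rests on single pairs. Of the 36 clock genes, 1 passed, PRR9. Its mean log2 difference was -1.31 in the inbreds and -0.60 in the hybrids (adjusted p = 0.0393), lost in 7 of 9 fits without 1 pair (up to 0.204). ASN1 had a mean of 2.34 in the inbreds and 0.78 in the hybrids (adjusted p = 0.0218), lost in 3 of 9 (up to 0.118). LNK1, CDF1 and GRP7 had differences of nearly the same mean size in inbreds and hybrids, -1.21 and -1.14, -1.21 and -1.23, and 1.37 and 1.35, and none of the 3 passed the interaction test.

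The genotypes C24, Ler, C24xLer and LerxC24 have further libraries of other letters, which the test did not use. They are described on a CPM scale set over the 24 libraries of those genotypes, with the 4 libraries lettered C, which are shallower, given apart. For the 7 morning genes called in all 9 pairs, the median of the other letters lay beyond B, on the side away from A, in 28 of 28 combinations of gene and genotype. This was so in 26 of 28 for the 7 evening genes, 29 of 32 for the 8 output genes, 37 of 44 for the flavonoid genes, 27 of 36 for the abscisic acid genes and 10 of 20 for the carbon starvation genes. The libraries lettered C lay beyond B in 10 of 28, 24 of 28 and 13 of 32 for the morning, evening and output genes, and in 8 of 44, 4 of 36 and 1 of 20 for the flavonoid, abscisic acid and carbon starvation genes. They lay beyond A, on the side away from B, in 13 of 44, 15 of 36 and 15 of 20 of the last 3. The same count over all genes was not made, so these counts cannot be called particular to the lists. Combinations within a genotype use the same few libraries, so they are not independent.

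LNK1 in C24 was at 161 CPM in A, 68.7 in B, 143 in C and 6.72 to 44.5 CPM in the 4 other letters. GRP7 in C24 was at 295 CPM in A, 677 in B, 332 in C and 1560 to 4580 CPM in the others. COR27 in C24 was at 1.4 CPM in A, 2.96 in B, 4.83 in C and 10.5 to 130 CPM in the others. The other letters also differed among themselves: PRR5 in Ler was at 13.4 CPM in A, 26.4 in B, and from 7.70 to 86.8 CPM in the others, below A and above B.

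**Figure D5:**
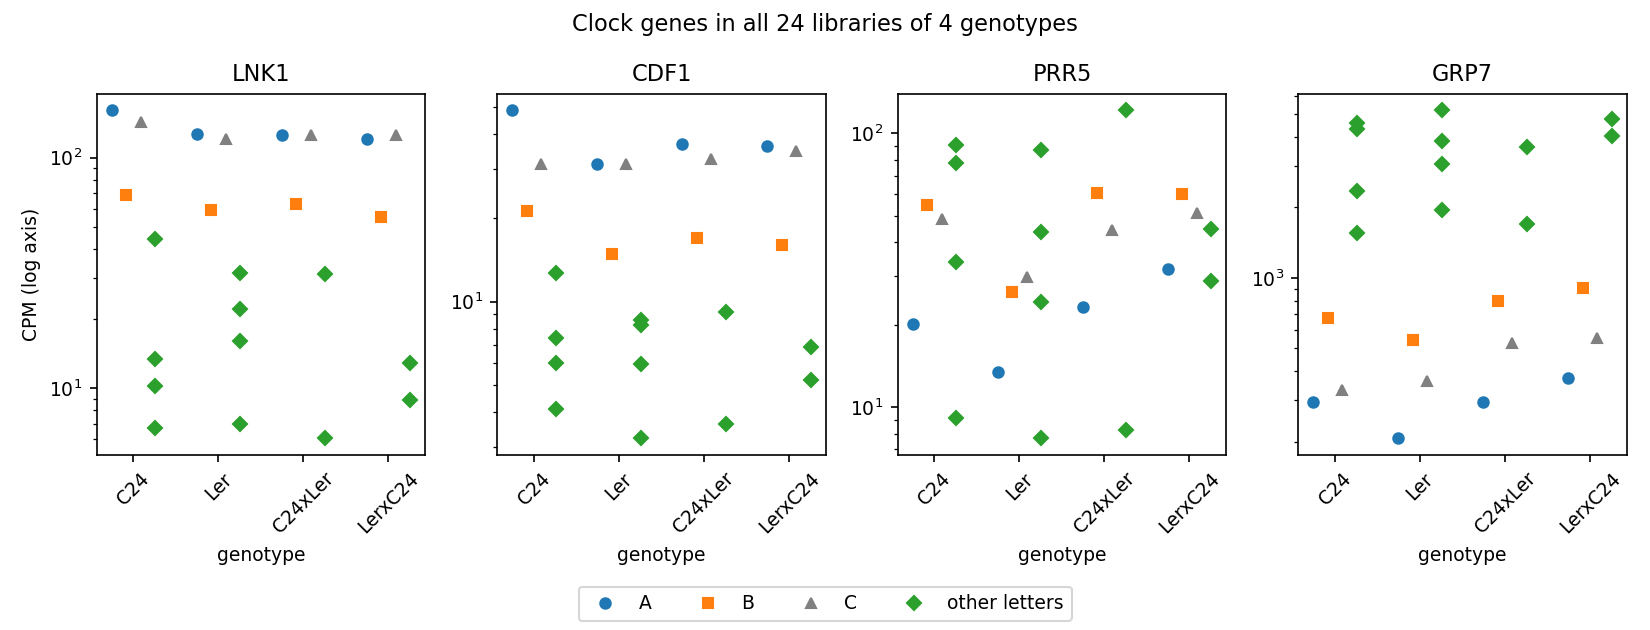
Level in CPM (log axis) of LNK1, CDF1, PRR5 and GRP7 in all 24 libraries of C24, Ler, C24xLer and LerxC24 (horizontal axis), with circles for A, squares for B, triangles for C and diamonds for the other letters. Diamonds of LNK1 and CDF1 lie below B and those of GRP7 above B in all 4 genotypes, while those of PRR5 spread around A and B, or below B in LerxC24.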

How the data were processed

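The authors deposited raw counts, whole numbers of reads per locus for 33321 loci in 34 libraries, in 1 table. Per the labels' protocols, libraries were made with an Illumina TruSeq mRNA kit and sequenced single-ended or paired-ended on a GAIIx or HiSeq by a service provider. The submitters' processing notes name FastQC and the TAIR10 genome. No source used here gives the aligner, the counter, the strand setting or the handling of read pairs, so overlapping and antisense genes cannot be told apart, and 48 of the 146 genes chosen for naming overlap another annotated gene. Columns were matched to samples by their titles; for LerxC24, 2 columns whose letters match no title were kept as that genotype with no letter.

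From these counts, set B was compared with set A in 18 libraries with edgeR 4.0.16 in R 4.3.3: TMM scaling, genes kept by filterByExpr with genotype as the group, robust dispersion, a quasi-likelihood test of B minus A with genotype as a block, and Benjamini-Hochberg adjustment over 29777 genes, called at an adjusted p below 0.05. CPM values use the TMM-scaled totals, and per-pair log2 differences a prior count of 0.5. Standard errors were worked back from the test over the 9 pairs, as the unshrunk log2 coefficient divided by the square root of its quasi-likelihood F statistic. A second model added the interaction with hybrid or inbred status. DESeq2 1.42.0 was an alternative. The steps were tested on simulated data. A p-value here measures the spread among these 9 pairs, each 1 library a letter and genotype. The labels do not say whether libraries of the same letter were grown or harvested together, and the hybrids descend from the accessions. The 9 pairs therefore cannot be taken as independent repeats of the contrast of A with B.

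The letters pair libraries across genotypes: the same-letter differences of 2 genotypes correlated with r of 0.200 or more in all 36 pairs of genotypes. The 2 libraries of a genotype differed beyond counting noise, with a chi-square per gene of 42.8 to 110. This does not tell separate plants from separate libraries, and that they are biological replicates rests on the labels. Gene lists, members and naming rule were chosen with earlier results of these data known. Named are the 12 genes of largest difference in each direction with 1 sign in all genotypes and a mean of at least 5 CPM, up to 4 called members of each list in each direction by smallest p, a fixed set of clock, light, cold and defence genes, and the 5 genes of smallest interaction p. Names come from RefSeq TAIR10.1, where 32565 loci matched and 314 of 321 list symbols were found. Alternatives were RLE and upper-quartile scaling, no filter or a mean of 5 CPM, no pairing, each pair left out, inbreds or hybrids alone, and counts thinned to the smallest library.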

Additional observations from a re-analysis of the deposited data

Results flagged for a closer look

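Among the 146 genes chosen for naming, the B minus A log2 differences of the 9 genotypes were searched for a genotype far from the other 8, a search in which chance flags about 1 in 20 groups. It marked 7 genes, about as many as chance would flag among 146 at that rate, so a single flag cannot be told from chance. In Col, AT1G72416 had a difference of 4.25 (0.97 to 2.42 in the other genotypes) and AT5G52882 one of 3 (1.18 to 2.04). In C24, AT4G08570 had -3.07 (-2.08 to -1.16). In ColxLer, P5CS1 had -1.95 (-1.55 to -1.17), and the clock gene GI had 0.0195 (0.26 to 0.50). In ColxC24, ERF6, an ethylene response factor, had -2.95 (-1.35 to 0.12) and MYC2 had -2.54 (-1.36 to -0.29).

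The difference between the sets was not the same in hybrids and inbreds, by the interaction term, for 11 of the 146 named genes. Over all 29777 genes, 247 passed that test (0.829%). With the hybrid minus inbred value of the log2 difference given for each, it was smaller in hybrids for the higher genes ASN1 (-1.56), AT2G30615 (-1.09), BGAL1, a beta galactosidase (-0.94), AT3G13760 (-0.93), PHOT1 (-0.47) and PORB (-0.38), and smaller in size for the lower genes AT1G60590 (0.81) and PRR9 (0.72). AT5G54710 (-0.83) and TPS11, a trehalose phosphate synthase relative (-1.02), had mean differences above 0 in the inbreds (0.53 and 0.65) and below 0 in the hybrids (-0.30 and -0.37), and AT4G30180 (1.52) had -0.51 in the inbreds and 1.02 in the hybrids. The calls of AT3G13760, AT4G30180, AT5G54710, BGAL1 and TPS11 held with any 1 pair left out, and those of the other 6 were lost in 2 to 7 of the 9 fits. The 5 that held were named because they had the smallest interaction p of all genes. Their passing was therefore fixed by that choice.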

How the results depend on the processing

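All 146 named genes kept their direction and call under RLE scaling and 144 under upper-quartile scaling, and the median of all genes stayed within 0.0094 of 0 in every fit. DESeq2 called 8628 genes and lost 3 named calls (HSFA7A, HSP21 and ATHSP22.0). With no replicate block (libraries not paired by genotype), 4789 genes differed, 2374 higher and 2415 lower, and 37 named genes lost their call. In the 3 inbreds alone 3922 genes differed, 1950 higher and 1972 lower, and 14840 had the same sign in all genotypes used, while 7697 had it in the 6 hybrids alone: fewer pairs make 1 sign more likely. Among named genes that passed in the main fit or in the inbreds alone, the sign reversed in the inbreds for YUC5 (0.0183), AOS (0.00531), AT5G54710 (0.54) and TPS11 (0.66). Genes that passed in neither fit are not in that list, and CBF2, one of them, also changed sign (-0.384 and 0.0263). Leaving out 1 pair gave 7754 to 8606 genes, 3697 to 4213 higher and 3888 to 4393 lower, and 18 named genes lost their call in at least 1 such fit: AOS, AT3G13760, ATHSP22.0, BBX14, BBX28, BGAL1, CBF1, ERF6, FHY3, HSFA7A, HSP90.1, JAZ5, KNOLLE, LHCB2.2, PDC1, RUP1, THAS1 and YUC5. The interaction count of 247 was 1165 in DESeq2 and ran from 7 to 843 with 1 pair left out; the cause was not tested. Thinning all libraries to the smallest gave 8731 genes and cost 3 named calls.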
